A study of Rattus norvegicus with 18 samples.

Results

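Sunflower oil was compared with virgin olive oil as the dietary fat in the livers of male Wistar rats killed at 6 months. The comparison used 6 of the study's 18 arrays, the 3 titled as young sunflower oil livers and the 3 titled as young virgin olive oil livers, paired by the sample number in the title (1 to 3), and it followed all 14217 genes that a probe set named singly. In the whole study, rats ate, from weaning onwards, a semi-synthetic AIN93-type diet with 4% fat by weight, the fat was virgin olive, sunflower or fish oil, and livers were taken at 6 or 24 months from 3 rats of each of the 6 groups. The 6 arrays described here thus came from intact male Wistar rats of 1 age that, per the labels, differed in the oil alone, with food given freely for the first 2 months and rationed afterwards. Rats were housed 3 to a cage, and since cage mates are not identified in the labels, cage and oil cannot be told apart. The labels do not say what the sample number stands for.

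Virgin olive oil is rich in oleic acid, a monounsaturated fatty acid that the liver can also make itself with stearoyl-CoA desaturase. Sunflower oil is rich in linoleic acid, the essential n-6 polyunsaturated fatty acid from which the desaturases and elongases of the liver make arachidonic acid. Polyunsaturated fatty acids are known to lower the activity of SREBP-1c, the transcription factor that drives the genes of fatty acid synthesis, and to act as ligands of PPAR-alpha, the nuclear receptor that drives fatty acid oxidation.

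Signals are the deposited linear intensities of the Affymetrix Rat Genome 230 2.0 array. Differences are sunflower minus olive oil of log2(signal + 16), and ± gives limma's standard error (n = 3 rats a group); this scale understates the change of dim genes. The tissue label held in the hepatocyte markers. The 9 measured ones, Alb, Apoa1, Ttr, Cps1, Fgb, Serpina1, Apoc3, Ahsg and Rbp4, were far above background on all 6 arrays, and their summed signal ran from 82837 to 87810 in the olive oil arrays and from 74691 to 84608 in the sunflower oil arrays. Array medians over all 31042 probe sets were 16.1, 16.15 and 16.5 in the olive oil group and 18.4 on all 3 sunflower oil arrays. With the pairs by number set aside, that difference had an exact two-sided permutation p of 0.1. This is the smallest that 3 against 3 unpaired arrays allow. At 6 months the arrays with the same number deviated together from their group means. For olive and sunflower oil the correlations of these deviations over genes were 0.153, 0.424 and 0.184 for numbers 1, 2 and 3. Between arrays of different numbers they were 0.085 and 0.113 for numbers 1 and 3, and from -0.262 to -0.206 with number 2. Number 2 thus stood apart most clearly, and numbers 1 and 3 were less distinct from each other. Deviations from a group mean cancel out within the group, so positive values for the same number pull the values between numbers down on average. The number was kept as a block.

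No gene differed between the oils at 6 months by limma's test after adjustment. Of 14217 genes 0 (0% of those tested) had an adjusted p under 0.05, and the smallest adjusted p was 0.75, that of Dhx36 among others. Without adjustment 767 genes had a p under 0.05, which is 5.39% of those tested, 431 with a higher and 336 with a lower signal on sunflower oil. That split depended on the scaling, since 334 were higher and 426 lower when each array was centred on its median over these genes. Those log2 medians overlapped between the oils, at 5.975, 5.91 and 6.0 on olive oil and 6.02, 6.01 and 5.94 on sunflower oil. The 95% interval of the difference lay within 2-fold in either direction for 13190 genes (92.8%) and within 1.5-fold for 52.3%. A fitted difference of 2-fold or more was found for 39 genes, and the extremes were 1.73 for Cav2, a caveolin, and -1.66 for Eif4ebp3.

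**Figure D1:**
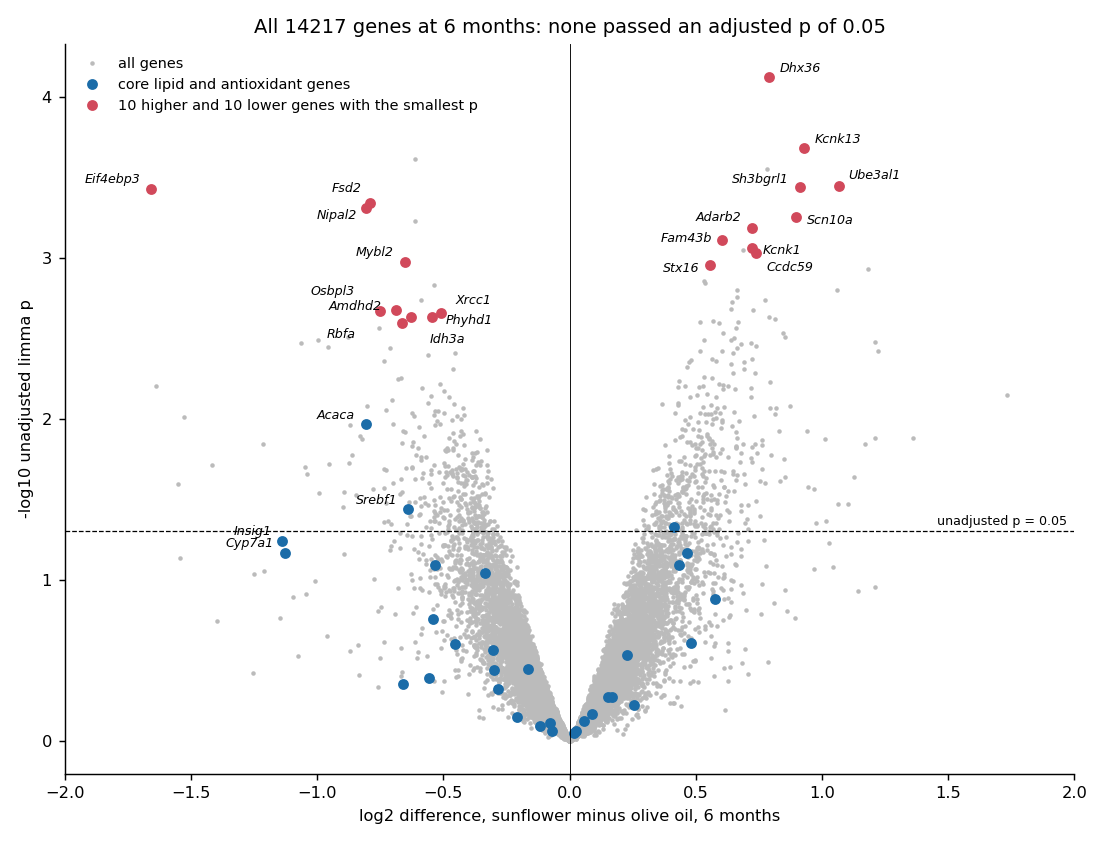
Fitted log2 difference (sunflower minus olive oil, 6 months, x axis) against -log10 of the unadjusted limma p (y axis) for all 14217 genes. Core genes are blue, and red marks the 10 genes higher and the 10 lower on sunflower oil with the smallest p, with predicted gene symbols and genes under 16 on all 6 arrays passed over; Eif4ebp3 stands alone at -1.66.

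Genes of fatty acid synthesis and SREBP-1 targets had mostly lower signals on sunflower oil, and no member passed after adjustment. Before adjustment 3 members had a limma p under 0.05, beside 5.39% of all genes. Of the 21 measured members (of 22 fixed) 0 passed the limma threshold, 18 had a fitted difference under 0 and 3 above it, where 6863 of all 14217 genes were under 0. The median difference of the list was -0.30, against 0.01 over all genes, and it was -0.38 in pair 1, -0.50 in pair 2 and -0.09 in pair 3. Without the olive oil array of number 3 the list median was -0.49. Members with a lower signal on sunflower oil in all 3 pairs numbered 6, and 1 member, Gpam, had a higher one in all 3; over all genes 12.1% were lower and 13.5% higher in all 3 pairs. No member had olive and sunflower oil arrays that did not overlap, where 3.66% of all genes lay wholly lower and 5.11% wholly higher on sunflower oil. In bulk liver RNA, a smaller share of cells that express a gene and less of its RNA per cell cannot be told apart.

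Srebf1, the gene of SREBP-1 itself, had signals of 1108, 925 and 589 on olive oil and 434, 962 and 369 on sunflower oil, in the order of numbers 1 to 3. The sunflower oil liver was lower in pairs 1 and 3 and level with its partner in pair 2, and the ranges overlapped. The fitted difference was -0.64 ± 0.27 (95% interval -1.23 to -0.05, adjusted p = 0.904), and a second probe set gave -0.50. The value rested on single arrays, at -0.27 without olive oil number 1 and -1.04 without olive oil number 2. Insig1, which holds the SREBP proteins in the endoplasmic reticulum and is itself one of their targets, had signals of 401, 3516 and 2777 on olive oil and 581, 1519 and 405 on sunflower oil. It was thus higher on sunflower oil in pair 1 and lower in pairs 2 and 3, and its difference of -1.14 ± 0.54 had an interval from -2.32 to 0.04. Without olive oil number 1 the value was -1.97, without olive oil number 3 it was -0.37 and without sunflower oil number 3 it was -0.72. Mlxipl, which codes for the glucose-sensing factor ChREBP, differed by 0.15 ± 0.24.

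Acaca, the acetyl-CoA carboxylase that commits carbon to fatty acid synthesis, had signals of 265, 2567 and 190.3 on olive oil and 148, 1134 and 132.5 on sunflower oil. Each sunflower oil liver lay below the olive oil liver of its number, while the groups overlapped because the number 2 livers of both oils were several-fold above the rest. Its difference was -0.81 ± 0.27, which is 1.75-fold, with an interval from -1.39 to -0.22 (adjusted p = 0.898), and a second, dimmer probe set gave -0.57. Pgd, a dehydrogenase of the pentose phosphate pathway that yields NADPH, showed the same order in every pair, with 235, 1732 and 197 on olive oil and 149.7, 903 and 137.5 on sunflower oil. The difference of Pgd was -0.67 ± 0.20 (interval -1.10 to -0.23, adjusted p = 0.898), and that of the NADPH-yielding malic enzyme Me1 was -0.45 ± 0.38, with a range from -0.88 to -0.05 over the alternatives.

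Acly, which makes cytosolic acetyl-CoA from citrate, had signals of 465, 4504 and 275 on olive oil and 292, 2786 and 373.5 on sunflower oil. Fasn, the fatty acid synthase, had 95.3, 2535 and 69.9 on olive oil and 76.3, 1456 and 80.1 on sunflower oil. For both, sunflower oil was lower in pairs 1 and 2 and higher in pair 3, and both differed by -0.30, with standard errors of 0.26 and 0.32. Over the alternatives Acly ran from -0.67 to -0.06, the latter without olive oil number 2, and Fasn from -0.53 to -0.05. Elovl6, the elongase of newly made palmitate, differed by -0.54 ± 0.37. Most of that came from number 2, with 1080.0 on olive oil and 292 on sunflower oil, and over the alternatives the value ran from -1.10 to 0.11. Scd, the desaturase that makes oleic acid, spanned a very wide range, with 25.8, 8930 and 25.3 on olive oil and 11.8, 8055 and 1.4 on sunflower oil. The difference of Scd was -0.66 ± 0.83, with an interval from -2.47 to 1.15, and over the alternatives the value ran from -1.17 to -0.28. Pklr, the liver pyruvate kinase that feeds this pathway, was lower in all 3 pairs, by values of -0.27, -0.40 and -0.33, with a fitted value of -0.34 ± 0.18 and -0.58 by a second probe set. Gpam, the acyltransferase that starts glycerolipid synthesis, lay the other way, with 74.8, 34.6 and 39.9 on olive oil against 78.3, 96.8 and 59.0 on sunflower oil and a difference of 0.55 ± 0.27.

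**Figure D2:**
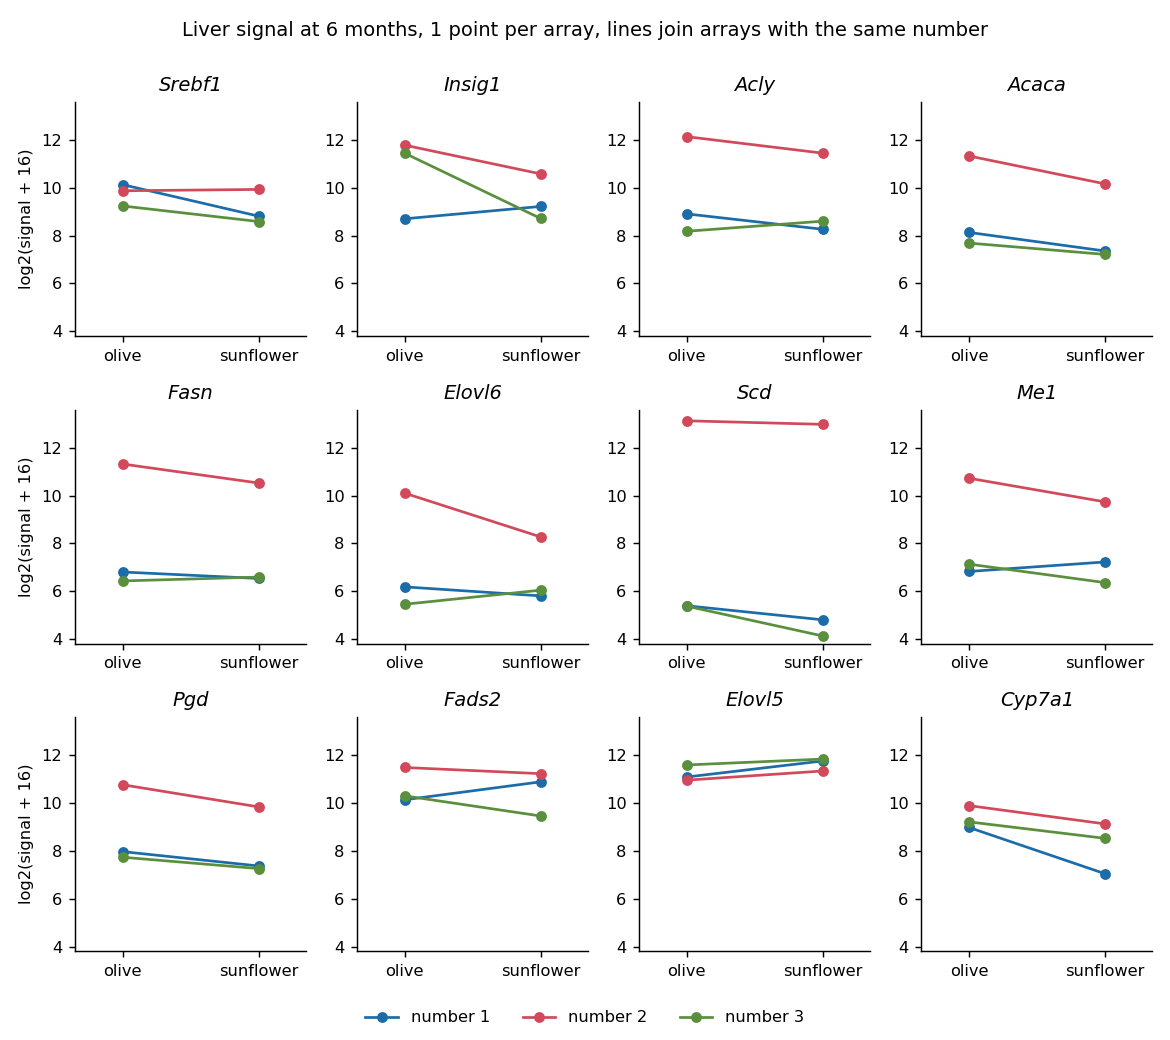
Signal of 12 lipid genes on the log2(signal + 16) scale (y axis) in the olive and sunflower oil livers at 6 months, 1 point per array, with lines joining arrays of the same number. Acaca and Pgd slope down in all 3 pairs, while the gap between number 2 (red) and the other numbers is far larger than the slope for Acaca, Acly, Fasn, Me1 and Scd.

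The sequences in front of 3 of these genes are shown because Pgd had the smallest p of the list, Srebf1 is its regulator and Scd its desaturase. They are the 250 bases before the RefSeq transcription start on the GRCr8 build, on the strand of the gene, and the capitals mark a CCAAT box in either orientation. Pgd lies on the minus strand at chr5:164882030-164882279, the Srebf1 start shown on the minus strand at chr10:45519011-45519260 and Scd on the minus strand at chr1:253231732-253231981.
Pgd: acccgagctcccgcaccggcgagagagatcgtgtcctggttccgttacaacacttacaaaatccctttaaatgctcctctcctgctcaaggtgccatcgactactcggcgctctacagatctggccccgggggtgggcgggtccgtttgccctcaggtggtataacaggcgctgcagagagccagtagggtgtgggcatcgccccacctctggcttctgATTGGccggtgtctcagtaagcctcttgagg
Srebf1: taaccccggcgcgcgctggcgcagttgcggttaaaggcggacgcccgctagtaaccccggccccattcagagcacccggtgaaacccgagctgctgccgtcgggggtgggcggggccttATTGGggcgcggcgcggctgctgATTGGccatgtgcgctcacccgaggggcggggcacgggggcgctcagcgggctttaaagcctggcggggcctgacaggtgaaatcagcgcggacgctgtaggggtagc
Scd: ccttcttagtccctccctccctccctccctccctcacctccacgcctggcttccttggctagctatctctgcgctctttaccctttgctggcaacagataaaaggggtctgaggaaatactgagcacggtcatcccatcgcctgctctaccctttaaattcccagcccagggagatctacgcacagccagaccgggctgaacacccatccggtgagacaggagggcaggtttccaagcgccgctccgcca
The letters CCAAT, searched on both strands, were found once for Pgd, at 2 places for Srebf1 and not for Scd. RefSeq windows were matched for 17 of the 21 genes, and 12 of these genes held CCAAT, a motif found in 34% of all 33469 windows of that length. The sterol element TCACNCCAC, which is in 1% of all windows, was in none of the list's windows, and the E-box CACGTG, in 5.6% of all, was found for Insig1 alone. CCAAT and TCACNCCAC can overlap, and CACGTG was searched on its own. A match is a description of the letters and no evidence of binding.

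The sample number, not the oil, held most of the spread in these genes. Over the 6 arrays, the number took 91.5% of the sum of squares of the fatty acid synthesis list and the oil 2.8%, against 53% and 16.2% over all genes, where the number has 2 of the 5 degrees of freedom and the oil 1. The number 2 array was the highest of its group in both oils for 16 of the 21 members (76.2%), against 13.9% of all genes. It lay above the mean of the other numbers by a list median of 2.56 on olive oil and 2.06 on sunflower oil, so the gap between rats of 1 diet was several times the gap between the diets. The same livers were highest in both oils for 17 of 17 cholesterol synthesis genes, and for 0 of 29 genes of fatty acid oxidation and PPAR-alpha response, whose list medians there were -0.74 on olive oil and -0.78 on sunflower oil relative to the other numbers.

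**Figure D3:**
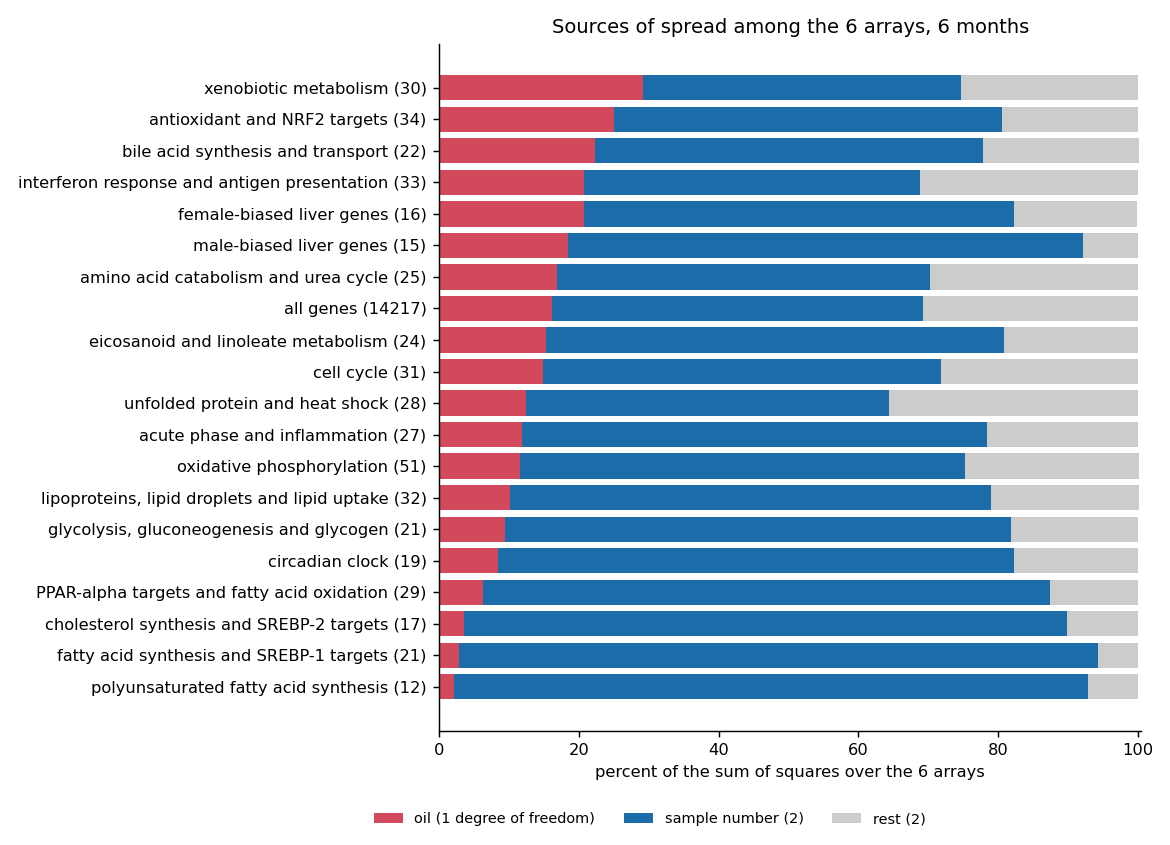
Share of the sum of squares over the 6 arrays (x axis, percent) that went with the oil (red), the sample number (blue) and the rest (grey), for all genes and for 19 pathway lists with the number of measured genes in brackets. Oil took 2.8% in fatty acid synthesis, 16.2% over all genes and 29.1% in xenobiotic metabolism.

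The desaturases and elongases that turn linoleic acid into arachidonic acid showed no shared direction. Of the 12 measured genes of polyunsaturated fatty acid synthesis, 0 passed, 6 were above and 6 below 0, and the median was -0.03. Fads2, the delta-6 desaturase that takes the first step, had signals of 1114, 2868 and 1249.8 on olive oil and 1886, 2395 and 690.2 on sunflower oil. Fads1, the delta-5 desaturase that takes the last, had 1857, 3865 and 2352 on olive oil and 3009.6, 3762 and 1290.3 on sunflower oil. In both genes sunflower oil was higher in pair 1 and lower in pair 3, and the differences were -0.12 ± 0.47 and -0.07 ± 0.41, whose signs turned in some alternatives (-0.55 to 0.31 and -0.47 to 0.33). Elovl5, the elongase between these steps, was higher on sunflower oil in all 3 pairs, with 2174, 1981 and 3088 against 3469, 2589.7 and 3665. Its ranges overlapped, and the difference was 0.43 ± 0.23 (interval -0.06 to 0.93, adjusted p = 0.906); a second, dimmer probe set gave 1.01. Hsd17b12, the ketoacyl reductase of the elongation complex, was the one member whose arrays did not overlap, with 1749, 1994 and 2069 on olive oil and 1443, 1441 and 1662 on sunflower oil, and a difference of -0.35 ± 0.20. Over all genes 3.66% lay wholly lower and 5.11% wholly higher.

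Cholesterol synthesis genes showed no shared direction either. Of 17 measured members 0 passed, 8 were above and 9 below 0, and the median was -0.0046. The largest differences in either direction were -0.50 for Pmvk, the phosphomevalonate kinase, and 0.30 for Dhcr7, the last enzyme of the pathway, and for 13 of 17 members the interval lay within 2-fold. Fdps, the farnesyl diphosphate synthase, had 652, 3401 and 942 on olive oil and 754, 3334 and 599.8 on sunflower oil, a difference of -0.15 ± 0.27.

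Among bile acid genes, Cyp7a1, whose product sets the pace of bile acid production from cholesterol, had the largest difference. Its signals were 490.2, 938 and 579 on olive oil and 116.5, 545.5 and 353 on sunflower oil, lower in each pair but with 1 sunflower oil liver inside the olive oil range. The difference was -1.13 ± 0.56 with an interval from -2.36 to 0.10 (adjusted p = 0.906), and it was -0.71 without olive oil number 1. Abcb4, the canalicular phospholipid exporter, had 573, 217 and 597 on olive oil and 938, 431 and 867 on sunflower oil, higher in each pair, with a difference of 0.72 ± 0.20 (adjusted p = 0.85). Slco1a1, an organic anion uptake transporter, did not overlap, with 608, 446 and 517 against 827, 777 and 868, and differed by 0.65 ± 0.25. Over the whole list of 22 genes 0 passed, 12 were above and 10 below 0, and the median was 0.03. Wholly higher on sunflower oil were 2 members, Slco1a1 and the dim Abcc3, and wholly lower was 1, Nr5a2, beside 5.11% and 3.66% of all genes. These genes other than Cyp7a1 were picked for naming after their values were seen.

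Genes of fatty acid oxidation and PPAR-alpha response had a median of 0.01. Of 29 measured members 0 passed, 15 were above and 14 below 0, and the interval lay within 2-fold for 23. Cpt1a, the entry step of fatty acids into mitochondria, had 5424, 3120.4 and 4105 on olive oil and 4411, 2609.9 and 4269 on sunflower oil, a difference of -0.17 ± 0.17, although a second probe set gave 0.26. Cyp4a1, the omega-hydroxylase that is a standard PPAR-alpha target in the rat, had 4729, 1122 and 3988 against 5304, 763 and 4421 and differed by -0.08 ± 0.27, a value that was 0.17 without sunflower oil number 2. Both were lowest in the number 2 livers of both oils. Fgf21, a fasting hormone of the liver, was higher on sunflower oil in all 3 pairs, with 261, 30.4 and 122 against 407, 38.4 and 187, a difference of 0.47 ± 0.23. The largest difference of the list was in Vnn1, a pantetheinase, with 647, 211 and 928 on olive oil and 1885, 334 and 1739 on sunflower oil (1.01 ± 0.35, interval 0.25 to 1.78, adjusted p = 0.898). Pdk4, a kinase that inhibits pyruvate dehydrogenase, had 431, 237.5 and 932 against 406, 214 and 349, so its difference of -0.53 ± 0.28 came mostly from pair 3 (-0.09 without olive oil number 3), and a second, dimmer probe set gave 0.16. Ppara itself differed by 0.58 ± 0.36, which came from an olive oil array of number 3 at 1.2 while the other 5 arrays lay between 50.3 and 62.7.

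Lipoprotein, lipid droplet and lipid uptake genes had a median of -0.03, with 14 of 32 above and 18 below 0 and 0 past the threshold. Wholly lower on sunflower oil were 3 members and wholly higher 0, beside 3.66% and 5.11% of all genes. In all 3 pairs 7 members were lower and 3 higher, beside 12.1% and 13.5% of all genes. Plin2, the droplet coat protein, differed by 0.23 ± 0.21, although a dimmer probe set gave -0.49 and the alternatives ran from -0.02 to 0.47. Cd36, the fatty acid transporter, had 185, 326 and 55.8 on olive oil and 139, 248 and 189.6 on sunflower oil, a difference of 0.26 ± 0.48 whose sign came from pair 3. Cidea, a droplet protein that is fixed here as an adipocyte marker and that steatotic liver can also express, had 152, 108 and 194 on olive oil and 778, 235 and 358.5 on sunflower oil. Its groups did not overlap, and the difference was 1.36 ± 0.47 with an interval from 0.34 to 2.39 (adjusted p = 0.898). Cidea set the summed adipocyte markers apart, which ran from 259 to 357 on olive oil and from 367 to 953 on sunflower oil over 7 measured genes. Of these 7 markers 3, Adipoq, Lep and Fabp4, were under 16 on all 6 arrays, and the others were not. The list had 5 members above and 2 below 0, with a median of 0.11. The part of fat cells in these values was not tested.

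**Figure D4:**
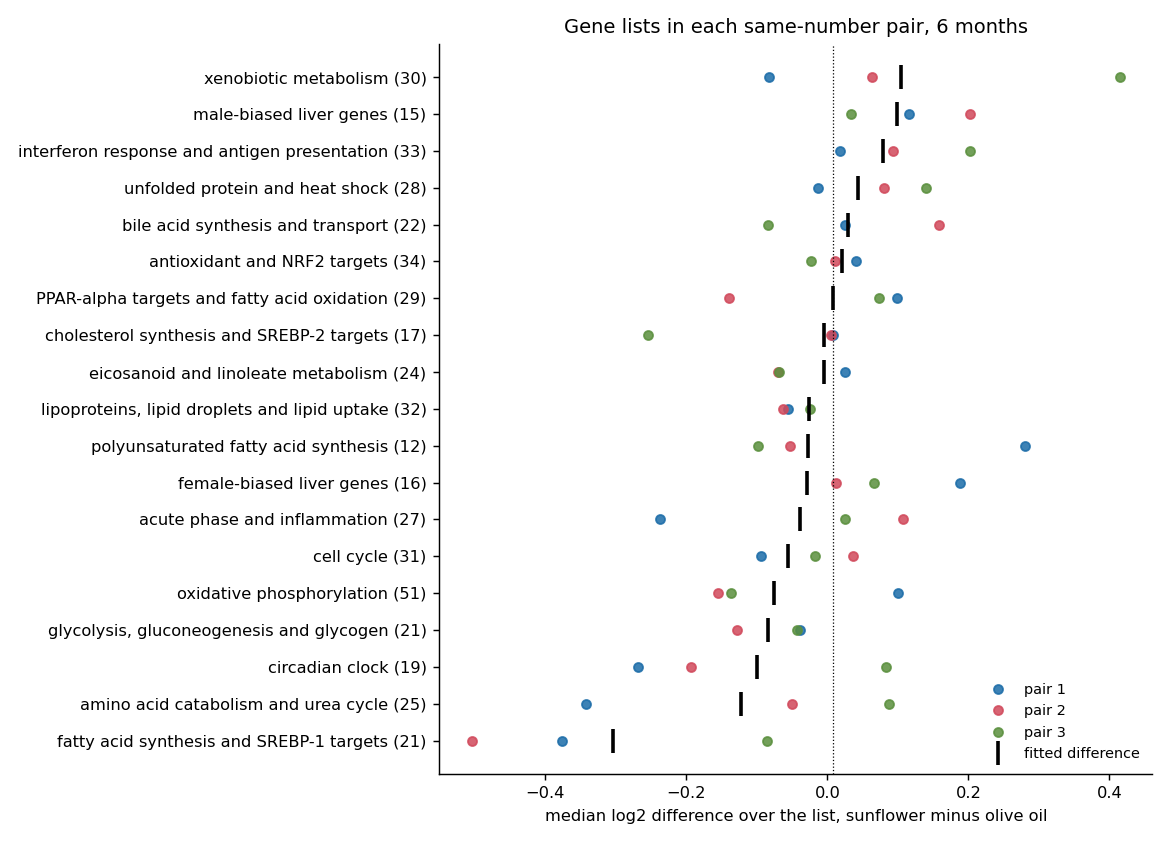
Median log2 difference (x axis, sunflower minus olive oil) over each of 19 pathway lists at 6 months in each same-number pair (coloured points) and in the fit (black bars), with the number of measured genes in brackets and the median of all genes dotted. Fatty acid synthesis lies lowest at -0.30, with pair medians of -0.38, -0.50 and -0.09, and in most other lists the pairs fall on both sides of 0.

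Differences in the main antioxidant enzymes were small. Cat, the catalase, differed by 0.03 ± 0.14, Gpx1, a glutathione peroxidase, by 0.02 ± 0.13, and Sod2, the mitochondrial superoxide dismutase, by 0.09 ± 0.21, with intervals of -0.29 to 0.34, -0.26 to 0.29 and -0.37 to 0.55. Nfe2l2, the gene of the oxidative stress factor NRF2, had 402, 271 and 349 on olive oil and 467, 427 and 468 on sunflower oil. Its groups did not overlap, and it differed by 0.41 ± 0.19 (interval 0.01 to 0.82, adjusted p = 0.906). The NRF2 target Nqo1 differed by 0.48 ± 0.40, with 347, 348 and 183 against 299.8, 410.2 and 514, and was at -0.04 without olive oil number 3. Hmox1, the heme oxygenase, differed by -0.28 ± 0.38. Of 34 measured antioxidant genes 0 passed, 20 were above and 14 below 0, the median was 0.02 and the interval lay within 2-fold for 31. Differences over the list ran from -1.54 to 0.48, and the lowest belonged to a member not named here. Nfe2l2 and Gclc were the 2 members wholly higher on sunflower oil and 0 were wholly lower, beside 5.11% and 3.66% of all genes.

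Oxidative phosphorylation had narrow limits. All 51 measured genes of the respiratory chain and ATP synthase had intervals within 2-fold, 39 were below 0, and the median was -0.08, with 0.10 in pair 1 and -0.16 and -0.14 in pairs 2 and 3. Amino acid catabolism and urea cycle genes had 18 of 25 below 0 and a median of -0.12, which was -0.34 in pair 1 and 0.09 in pair 3. Its most divergent member, the serine dehydratase Sds, had 3074, 1593 and 2590.2 on olive oil and 561, 680.0 and 1756 on sunflower oil, lower in each pair, with a difference of -1.40 ± 0.98. Xenobiotic metabolism had the highest pathway median, 0.10, with 19 of 30 above 0, but the pair medians were -0.08, 0.06 and 0.42, and in pair 1 17 members were lower. Wholly higher on sunflower oil were 3 members, Ahr, Ugt2b1 and Abcb1a, with differences of 0.55, 0.64 and 0.74, and wholly lower was 1, beside 5.11% and 3.66% of all genes. That one was Cyp3a9, the member with the largest difference, a cytochrome P450 of the steroid-hydroxylating family, with 1507, 1078 and 1319 on olive oil and 287, 248.8 and 906 on sunflower oil, groups that did not overlap (-1.64 ± 0.50, interval -2.72 to -0.56, adjusted p = 0.898). Enzymes that act on arachidonic and linoleic acid, 24 measured, had a median of -0.0048. Wholly lower were 2 of them, Cyp2j3 and Cyp4f4, and wholly higher was 1, Alox12, which was under 10 on all 6 arrays, beside the same shares of all genes. The epoxygenase Cyp2j3 had 818, 935.5 and 887 against 439.7, 600.4 and 693, a difference of -0.62 ± 0.20, and Cyp4f4, an omega-hydroxylase, differed by -0.47 ± 0.19. The genes of this paragraph were picked for naming after their values were seen.

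In the remaining pathway lists 0 genes passed. Medians were -0.08 for glycolysis, gluconeogenesis and glycogen (21 genes), 0.10 for male-biased (15) and -0.03 for female-biased liver genes (16), 0.04 for unfolded protein and heat shock genes (28), and 0.08 for interferon response and antigen presentation (33). They were -0.04 for acute phase and inflammation (27), -0.06 for the cell cycle (31) and -0.10 for the circadian clock (19). Single members were spread more widely, from -1.55 to 0.80 among male-biased and from -0.60 to 1.22 among female-biased genes. The interval lay within 2-fold for only 5 of 15 male-biased, 6 of 16 female-biased, 8 of 19 clock and 16 of 33 interferon response genes, beside 92.8% of all genes.

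Among the genes with the smallest p, Eif4ebp3 had the largest difference. It codes for a binding protein of the cap-binding factor eIF4E that holds back translation initiation, and its signals were 1906, 1577 and 2442 on olive oil and 733, 478 and 631 on sunflower oil. The groups did not overlap and each sunflower oil liver was lower than its partner, with pair differences of -1.36, -1.69 and -1.93. Over all genes 3.66% lay wholly lower on sunflower oil, and Eif4ebp3 was picked by its p in these same values. The fitted difference was -1.66 ± 0.34, or 3.16-fold, with an interval from -2.40 to -0.91 (limma adjusted p = 0.75). When the replicate block was fitted to the 9 arrays at 6 months alone, the adjusted p of Eif4ebp3 was 0.0385, the 1 gene that passed in any alternative of this comparison; over all alternatives it ran from 0.0385 to 0.9999, and the difference from -1.81 to -1.52.

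Other genes in that group, most of them of moderate or high signal, were spread over unrelated functions. Dhx36, a helicase that unwinds G-quadruplexes, had 79.4, 135.7 and 113.8 on olive oil and 154.5, 245.5 and 202 on sunflower oil, a near-equal step in each pair (0.84, 0.79 and 0.75). Its other 4 probe sets gave 0.11 to 0.49. Sh3bgrl1 had 351, 251 and 309.6 against 555, 593 and 597.5, with no overlap and a difference of 0.91 ± 0.19. Ube3al1 differed by 1.07 ± 0.22, Ccdc59 by 0.74 ± 0.17 and the syntaxin Stx16 by 0.56 ± 0.13. On the lower side, Phyhd1, a dioxygenase related to phytanoyl-CoA hydroxylase, had 1385, 1196 and 1379 on olive oil and 884, 852 and 957 on sunflower oil, a difference of -0.55 ± 0.14 with no overlap. Idh3a, a subunit of the citric acid cycle isocitrate dehydrogenase, had 109, 166 and 97.7 against 62.7, 86.1 and 71.4, a difference of -0.63 ± 0.16, again with no overlap. The mitochondrial ribosome factor Rbfa differed by -0.66 ± 0.18, the transporter-like Nipal2 by -0.81 ± 0.17 and the DNA repair scaffold Xrcc1 by -0.51 ± 0.13. Osbpl3, an oxysterol-binding protein relative, differed by -0.75 ± 0.19, where its second probe set gave -0.17. Nipal2 and Osbpl3 were dimmer, with mean log2 signals of 5.72 and 5.29 over all arrays. On the sunflower oil arrays Osbpl3 read 13.2, 40.3 and 9.2. All adjusted p-values of these genes were 0.75 or more. Over all genes 5.11% lay wholly higher and 3.66% wholly lower on sunflower oil, and picking by the smallest p favours genes without overlap.

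The rest of that group was dim. Kcnk13, Scn10a, Adarb2, Fam43b and Kcnk1, all with differences from 0.61 to 0.93, were between 1.0 and 7.4 on the olive oil arrays and between 10.6 and 25.3 on the sunflower oil arrays, near the pseudocount of 16. Fsd2, Mybl2 and Amdhd2, with differences of -0.79, -0.65 and -0.69, had no olive oil signal above 35.1, and a second Mybl2 probe set gave 0.22. The array medians, which were higher on sunflower oil, moved with this pattern. Among 7058 genes with a mean log2 signal under 6, 273 were higher and 134 lower at an unadjusted p under 0.05, and among the 7159 brighter genes 158 were higher and 202 lower. The part of the array medians in these differences was not tested.

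The 6 arrays from 24 months, which share none with the comparison above, gave a reading of the same contrast in other rats, within a fit that shares 1 estimate of the spread. At 24 months 0 genes (0%) passed limma's threshold, with 749 at an unadjusted p under 0.05, and 0 (0%) passed the test of whether the difference between the oils itself differed between the ages, with 722 at an unadjusted p under 0.05. Acaca differed by -0.81 at 6 months and by 0.73 ± 0.27 at 24 months, a change of 1.54 (adjusted p = 0.842). The fatty acid synthesis list, with a median of -0.30 at 6 months, had one of 0.12 at 24 months, when 5 of its 21 members were below 0. Fasn went from -0.30 to 0.59, Elovl6 from -0.54 to 0.83 and Acly from -0.30 to 0.40, while Srebf1 was negative at both ages (-0.64 and -0.53). Eif4ebp3, so far apart at 6 months, had 337, 263 and 479 on olive oil and 217, 552 and 209.6 on sunflower oil at 24 months, a difference of -0.24 ± 0.34. The change between ages was 1.42 for Eif4ebp3 (adjusted p = 0.882), and it too did not pass. Nqo1 differed by 1.77 ± 0.40 at 24 months, where olive oil arrays read 83.0, 75.3 and 80.6 and sunflower oil arrays 323, 334 and 273, against 0.48 at 6 months.

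The 5 genes with the smallest p for the change between ages were Kcnk13, Cldn3, Pnpla7, Mark4 and Pdk4. Pdk4 went from -0.53 at 6 months to 1.25 at 24 months, a change of 1.79. Cldn3, a tight junction claudin, went from 0.11 to -1.39, and Pnpla7, a lysophospholipase, from -0.34 to 0.68. Kcnk13 (0.93 to -0.50) and Mark4 (0.37 to -0.57) were dim. Adjusted p-values of these changes were 0.728 for Kcnk13 and Cldn3 and 0.842 for the other three. At 24 months same-numbered olive and sunflower oil arrays had deviation correlations of 0.017, -0.114 and 0.203, so the number did not pair those arrays as it did at 6 months.

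**Figure D5:**
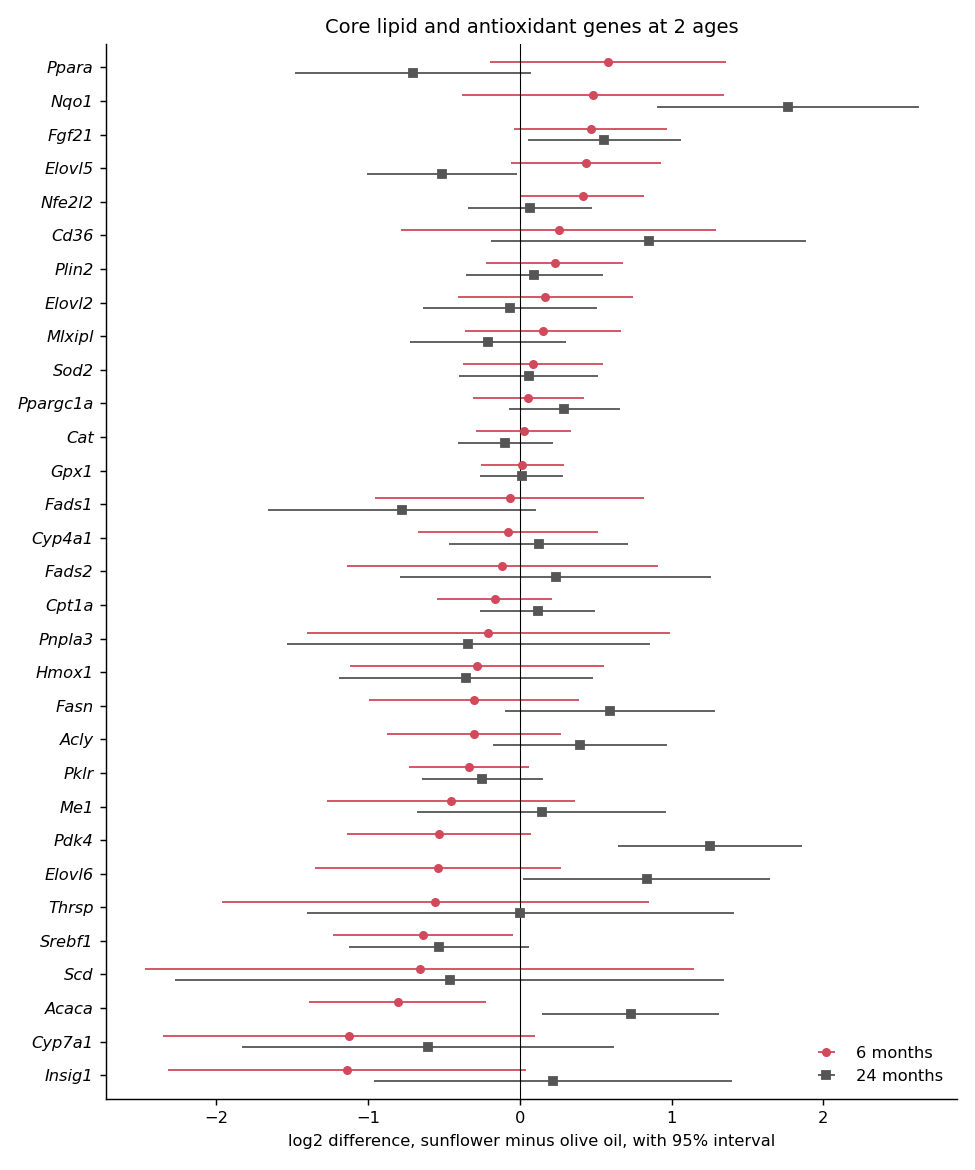
Log2 difference (sunflower minus olive oil, x axis) of the 31 measured core genes of lipid and antioxidant metabolism at 6 months (red circles) and 24 months (grey squares), with 95% intervals of the limma fit. Acaca is at -0.81 at 6 months and 0.73 at 24 months, and Cat and Gpx1 are near 0 at both ages; none of the changes between ages passed.

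The fish oil arrays of 6 months, which share the olive and the sunflower oil arrays with the comparisons made here, are given as values only. Eif4ebp3 read 1016, 748 and 973.5 on fish oil, between the other oils. Acaca read 96.5, 1054 and 138, and fish minus olive was -1.01 and fish minus sunflower -0.20. For Fads1 the same pair of differences was -1.33 and -1.26, and for Fads2 -1.02 and -0.91, beside the sunflower minus olive values of -0.07 and -0.12.

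Markers of other cell types held 0 called genes. Erythroid markers had the largest list median, 0.45, with 5 of 5 above 0 (0.83 in pair 1, -0.29 in pair 2 and 0.71 in pair 3), and their summed signal ran from 4805 to 7678 on olive oil and from 5689 to 9594 on sunflower oil. Alas2, the erythroid heme synthesis enzyme, had 327, 115 and 128 against 661, 157 and 398, a difference of 0.97 ± 0.39. Exocrine pancreas markers summed to 957 to 977 on olive oil and 1007 to 1461 on sunflower oil over 12 genes, most of it from the elastase Cela1, with Prss2, Cela2a, Cela3b and Ctrb1 under 16 on all 6 arrays. Macrophage markers had a median of 0.11 with 7 of 9 above 0, and monocyte and granulocyte (-0.0043), T and NK cell (-0.01), B and plasma cell (0.10), stellate cell (-0.04), endothelial (-0.03) and cholangiocyte markers (-0.15) had ranges of summed signal that overlapped between the oils. Of 9 hepatocyte markers 8 were below 0, and the median of all 9 was -0.08, with -0.19 in pair 1, -0.08 in pair 2 and 0.02 in pair 3. Among them Alb differed by -0.26 ± 0.15. The part of these cells in the differences given above was not tested.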

How the data were processed

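Each of 18 livers, 3 in each of 6 groups, gave 1 Affymetrix 230 2.0 array. The deposited value table holds linear intensity values from 0.0 to 14085.0, of which 47.3% lie under 16. RMA and Partek appear in the submitters' processing notes with no version, yet the deposited intensity values are linear and share no common distribution, so which tool produced them remains unknown here. Values were taken as log2(value + 16). Of 31042 probe sets 20826 had 1 gene symbol, 436 several and 9780 none in the platform annotation, and 20758 matched RefSeq, which updated 0 symbols. Each of 14217 genes was represented by its brightest probe set (mean log2 value).

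All 18 arrays were fitted with limma 3.58.1 in R 4.3.3 (group means, with the sample number within each age as a block, Benjamini-Hochberg adjustment, threshold 0.05), because same-numbered arrays deviated together at 6 months; the labels do not say why. At 24 months they did not, and the same block was kept there. Plots used matplotlib 3.10.9 and tables pandas 2.3.3, with scipy 1.17.1 and numpy 2.4.6 under Python 3.11.15, and the fit was tested on simulated data. The genes named were the 10 higher and 10 lower with the smallest p (since under 10 passed, without predicted symbols or genes under 16 on all 6 arrays), the core genes (31 of 36 measured) and the 5 with the smallest p for the change between ages. Other list members were named after their values were seen. Members, the 30 gene lists (19 pathways, 11 cell types) and tests were chosen with earlier results of these data known. The p-values measure the spread between these rats as housed, and the number of arrays limits the precision. Alternatives were the block, the arrays fitted, the pseudocount, a filter on dim genes, all probe sets, 2 rescalings, another moderation and leaving out arrays. Reading these at 24 months was added after seeing the data.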

Additional observations from a re-analysis of the deposited data

How the results depend on the processing

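At 6 months the limma call of 0 genes held in every alternative run but one: with the replicate block and only the 9 arrays at 6 months, 1 gene passed, Eif4ebp3, at the same difference of -1.66 (adjusted p = 0.0385). With no replicate block 0 genes passed, with 550 at an unadjusted p under 0.05 over all 18 arrays and 556 over the 6 arrays alone, and the block on those 6 arrays gave 0 and 759. Leaving out each 6-month olive or sunflower oil array, or each number, also gave 0 calls, with 601 to 844 genes at an unadjusted p under 0.05. At 24 months the alternatives were read after seeing the data. There 1 gene, Cldn3 (limma adjusted p = 0.117 as reported), passed among genes of a mean log2 of at least 6. It also passed when arrays were centred on their median and with trend and robust moderation. Leaving out the 6-month arrays of a number gave 0 to 1 calls at 24 months (1 without number 2). No 24-month array was left out there, so only the shared estimate of the spread changed. The test of the change between ages gave 0 in all alternatives. Of 1120 values of 54 named genes over 21 settings, 1040 lay within 1 standard error, 79 moved further and 1 was called. Settings of the block, the moderation, the genes tested or the arrays of other groups cannot move a difference in this balanced design. Many of the 1040 were thus fixed in advance. The sign turned at least once for 17 genes, 16 of them among the 31 core genes and 0 among the 20 with the smallest p. Those 20 were picked by their p in these same arrays, so their steady sign is no added support. Of 650 list medians 595 stayed within the spread and 55 moved, and here too the settings of block and moderation could not move a value. The fatty acid synthesis median ran from -0.49 (without olive oil number 3) to -0.23. Centring on array medians moved the median of all genes from 0.01 to -0.02. Signals under 16 resolve little, which limits the dim genes.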
